A study of Mus musculus with 79 samples.

Results

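The genes described here are 38 genes of mitosis, chosen by name and read in each of the 3 deposited RNA tables as rows of 23983 gene symbols. All 38 had a row in each table. They were listed for their function in mitosis, and earlier results of these data were known when the list was made. The study asks how T (Brachyury) and Sox2 bear on the choice of neuro-mesodermal progenitors, cells at the caudal end of the mouse embryo, between a neural and a mesodermal fate. Of its 79 samples, 9 bulk RNA libraries and 53 single cells are used here.

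All embryos were made from embryonic stem cell lines by tetraploid complementation, so the embryo proper comes from the stem cells. Caudal ends were dissociated with trypsin and sorted by flow cytometry. The sort table holds 3 fractions of wild-type (WT, C57BL/6N) embryos of Theiler stage 12 (TS12), T+, T+ Sox2+ and Sox2+. The knockout table holds T+ cells of WT (C57BL/6N) embryos and of T2J/2J embryos (T KO, C57BL/6J) at TS12 and TS13. It also holds 2 Tbx6+ libraries of TS14, both C57BL/6J. The titles call these WT and Tbx6 KO and the source names say the opposite, so they are called by their titles, "the library labelled WT" and "the library labelled Tbx6 KO". The single cells are T+ Sox2+ cells of WT (C57BL/6N) embryos, taken at TS13 and loaded on a Fluidigm C1. Each bulk group has 1 library, so a difference between 2 libraries has no replicate check. Expression is given as FPKM (fragments per kilobase of transcript, scaled to the mapped fragments of a library), and differences are of log2(FPKM + 1).

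A dividing cell enters mitosis when cyclin B activates Cdk1. Aurora and Polo kinases, kinesins and spindle proteins then build the spindle, kinetochores tie it to the centromeres, and the spindle checkpoint holds back the ubiquitin ligase that starts anaphase. Most of these transcripts are made late in the cell cycle, from promoters known for 2 short elements, CCAAT boxes and the cell cycle genes homology region (CHR, TTTGAA). Neuro-mesodermal progenitors are a dividing population that feeds the growing body axis.

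Sequences before the transcription start were found in RefSeq (GRCm38.p6) for 32 of the 38 genes. Aurkb, Ccna2, Kif20a, Spc24, Tpx2 and Incenp had no entry. In the window from 250 bases before to 50 bases after the start, TTTGAA was present on either strand in 25 of 32 genes (78.1%), against 20.2% of all 27025 genes with such a window. CCAAT was present on either strand in 24 (75%), against 41.1%. Both were present in 21 (65.6%), against 8.97% of all genes, and neither in 4 (Birc5, Mad2l1, Nuf2 and Nusap1). The 2 motifs can share at most 1 base, and windows of a gene's several starts were read together. A match is only a match of letters, and the choice of motifs rests on what is known of these genes. The 6 stretches of 110 bases before the start are shown to let both kinds of promoter be read, 4 with both motifs and 2 with neither, from members whose stretch lies outside the annotated gene. Capitals mark CCAAT or its reverse complement ATTGG, and TTTGAA or its reverse complement TTCAAA.
Ube2c: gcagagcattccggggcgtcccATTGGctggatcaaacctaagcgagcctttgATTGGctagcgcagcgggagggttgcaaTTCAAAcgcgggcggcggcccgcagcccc
Cdc20: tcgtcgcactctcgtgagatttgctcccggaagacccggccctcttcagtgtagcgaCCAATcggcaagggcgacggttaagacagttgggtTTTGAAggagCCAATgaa
Cdk1: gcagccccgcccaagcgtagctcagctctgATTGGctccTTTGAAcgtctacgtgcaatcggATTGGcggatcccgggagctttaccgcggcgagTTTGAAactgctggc
Kif11: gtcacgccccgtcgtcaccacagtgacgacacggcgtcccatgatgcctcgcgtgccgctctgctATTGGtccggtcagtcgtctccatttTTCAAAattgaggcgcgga
Nusap1: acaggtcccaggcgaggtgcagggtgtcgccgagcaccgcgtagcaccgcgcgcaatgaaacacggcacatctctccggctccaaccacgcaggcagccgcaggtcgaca
Nuf2: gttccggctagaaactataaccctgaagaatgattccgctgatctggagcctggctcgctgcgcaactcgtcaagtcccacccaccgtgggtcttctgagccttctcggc
In Ube2c, which encodes the ubiquitin-conjugating enzyme of anaphase, the stretch lies at chr2:164769819-164769928 on the + strand and holds 2 CCAAT and 1 TTTGAA. In Cdc20, which encodes the activator of the anaphase ligase, it lies at chr4:118437344-118437453 on the - strand with 2 CCAAT and 1 TTTGAA. In Cdk1, the mitotic kinase, it lies at chr10:69352913-69353022 on the - strand with 2 CCAAT and 2 TTTGAA. In Kif11, the kinesin that pushes spindle poles apart, it lies at chr19:37376272-37376381 on the + strand with 1 CCAAT and 1 TTTGAA. In Nusap1, a microtubule-bundling protein of the spindle, it lies at chr2:119618188-119618297 on the + strand, and in Nuf2, a subunit of the Ndc80 kinetochore complex, at chr1:169531465-169531574 on the - strand. These 2 stretches hold neither motif.

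All 38 genes were above 5 FPKM in each of the 9 libraries. The 3 tables are taken as normalised separately and the 2 bulk tables come from different library kits, so levels are compared only within a table. The median of the 38 was lowest in Sox2+ (41.2 FPKM) and highest in T+ Sox2+ (47.1) in the sort table. In the knockout table it was lowest in WT T+ at TS13 (45.3) and highest in the Tbx6+ library labelled WT (59.2). In the sort table Spc24, a kinetochore subunit, was lowest in each fraction (14.3 FPKM in T+, 14.5 in T+ Sox2+, 15.5 in Sox2+) and Ube2c highest (208 in T+, 231 in T+ Sox2+, 160 in Sox2+). In the knockout table Anln, an actin-binding protein of the cleavage furrow, was lowest, from 17.5 to 24.0 FPKM over the 6 libraries. Top2a, the topoisomerase that separates sister chromatids, was highest, from 162 to 356 FPKM. Estimated depth was 20.8 to 43.5 M fragments, and a 1 kb gene at 20 FPKM then has a counting error of 3.39% to 4.9%, which covers counting only. The T+ WT TS12 library of the knockout table stands apart: it has 2936 genes at low FPKM, against 1018 to 1170 in the other 8. In the sort table Sox2 was at 2.82 FPKM in T+, 16.4 in T+ Sox2+ and 50.5 in Sox2+ cells, and T at 141, 341 and 192, so T mRNA was not lowest in the Sox2+ fraction. The gene T was at 69.8 and 76.4 FPKM in WT T+ cells and at 4.61 and 3.32 in T KO at TS12 and TS13. Tbx6 was at 31.5 FPKM in the Tbx6+ library labelled WT and at 10.2 in the library labelled Tbx6 KO. The spans of 7 members (Ccna2, Aurka, Cdc20, Kif20a, Nusap1, Prc1 and Anln) overlap another protein-coding gene, and whether counting used strand is not given in the sources used here.

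**Figure D1:**
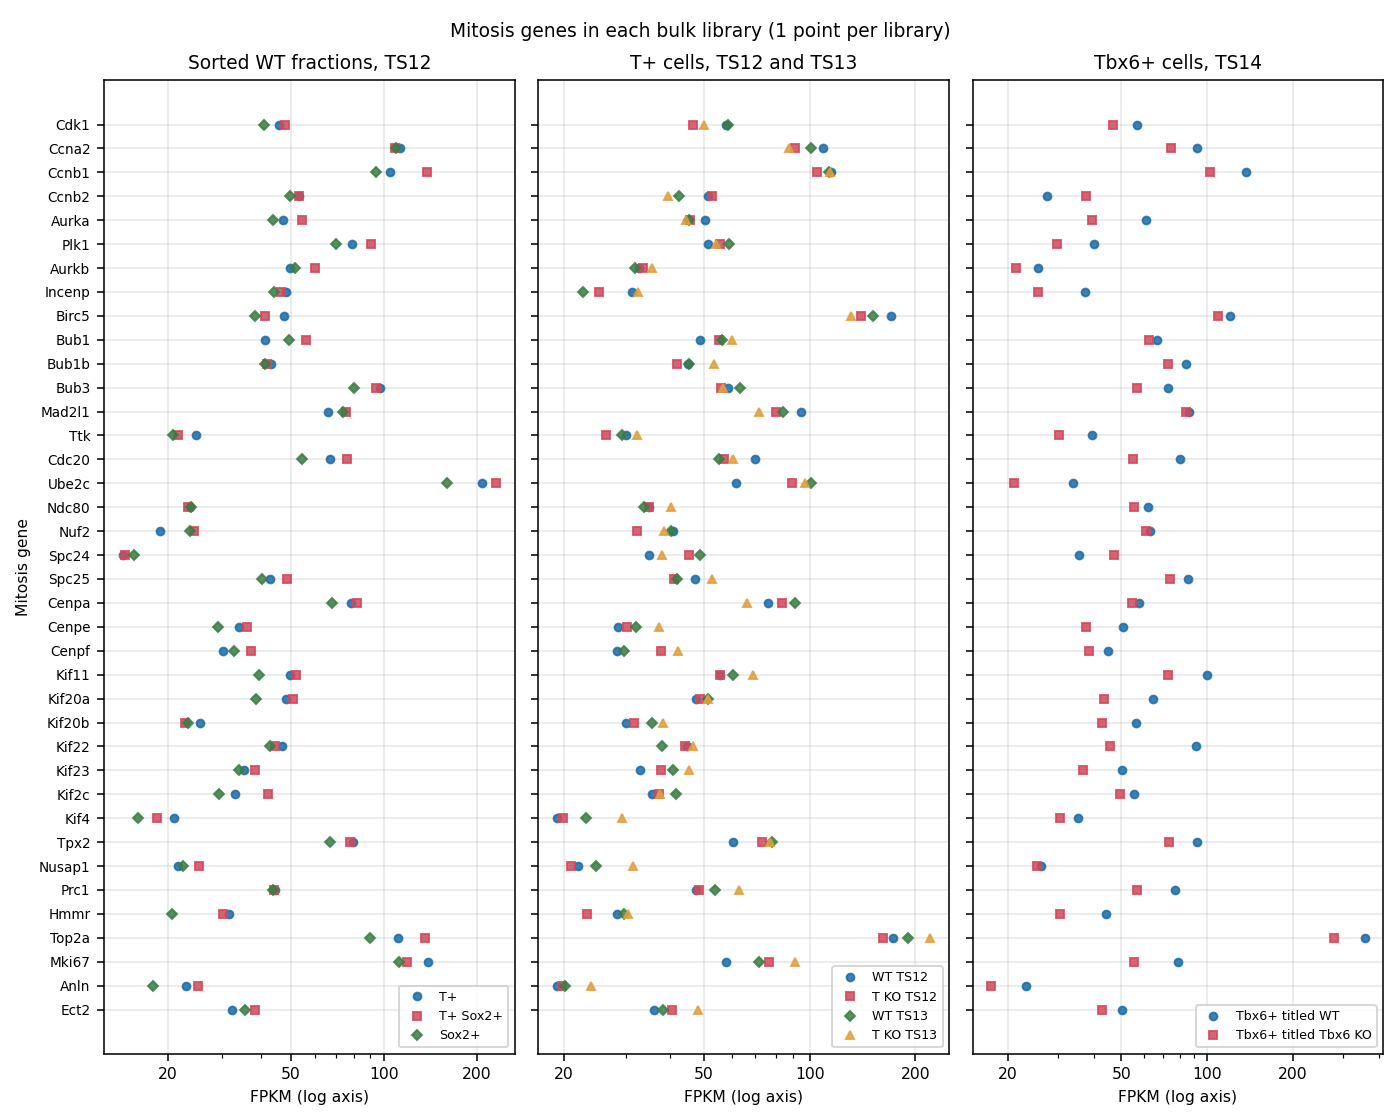
FPKM of each of the 38 mitosis genes (rows) on a log axis, 1 point per library, in the sorted WT fractions, the T+ libraries and the Tbx6+ pair. In the Tbx6+ panel the library labelled Tbx6 KO lies to the left of the library labelled WT for 36 of 38 genes.

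Most of the mitosis genes were lower in Sox2+ cells than in the T-positive WT fractions. In T+ Sox2+ cells 34 of 38 genes were higher than in Sox2+ cells (47.6% of all genes compared), with a median difference of 0.19 against -0.02 for all genes. In T+ cells 29 of 38 were higher than in Sox2+ cells (51.0% of all genes), with a median of 0.14 against 0.01. Between T+ Sox2+ and T+ cells 23 of 38 were higher in T+ Sox2+ (46.8% of all genes), with a median of 0.07 against -0.02. The first 2 of these comparisons share the Sox2+ library and the 3 share libraries pairwise, so they are not independent. Not 1 of the 38 reached a 2-fold difference in any of them, where 2.95%, 6.89% and 3.18% of all genes did.

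By role, the 2 anaphase genes (Cdc20 and Ube2c) had medians of 0.34 in T+ and 0.50 in T+ Sox2+ minus Sox2+, and the 2 chromosome genes (Top2a and Mki67) 0.30 and 0.34. Top2a was at 111 FPKM in T+, 136 in T+ Sox2+ and 90.3 in Sox2+, a difference of 0.59 between T+ Sox2+ and Sox2+. It was lowest in Sox2+ and highest in the double-positive cells. Ccnb1, the main cyclin of mitotic entry, was at 105, 138 and 94.2 FPKM in T+, T+ Sox2+ and Sox2+, with a difference of 0.54. Hmmr, a spindle protein that binds hyaluronan and microtubules, was at 31.6, 30.1 and 20.6 FPKM, so that its differences from Sox2+ were 0.60 in T+ and 0.53 in T+ Sox2+. Both T-positive fractions were above Sox2+ for Hmmr and differed little from each other. Ube2c was 0.52 higher and Kif2c, a kinesin that removes tubulin from microtubule ends, 0.51 higher in T+ Sox2+ than in Sox2+. At the other end, Nuf2 was at 18.8 FPKM in T+ against 24.3 in T+ Sox2+ and 23.5 in Sox2+, and Bub1, a checkpoint kinase, at 41.1 against 55.8 and 49.3. Both were lowest in T+ cells, Nuf2 by 0.30 and Bub1 by 0.26 from Sox2+, and with Mad2l1, Ect2 and Cenpf they were the 5 members with the lowest T+ minus Sox2+ difference. The kinesins were higher in T+ than in Sox2+ cells in 7 of 7 genes and the kinetochore and centromere genes in 3 of 7.

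The replication list (37 genes such as Mcm2 to Mcm7 and Pcna) lay on the other side of the fractions. Its median was -0.26 in T+ minus Sox2+, with 3 of 37 higher, and -0.36 in T+ Sox2+ minus Sox2+, with 2 of 37 higher. The other 86 genes of mitosis had medians of 0.02 (49 of 85 compared higher) and 0.08 (52 of 83 higher) in the same comparisons, nearer to 0 than the 38. Markers of other cells moved with the fractions: the 12 blood and endothelium genes summed to 12056 FPKM in T+, 233 in Sox2+ and 116 in T+ Sox2+ cells, with 0 of 12 at 0 in each. Presomitic mesoderm genes had a median of 1.93 in T+ minus Sox2+ and neural genes -1.62. Their part in the differences of the mitosis genes was not tested. In bulk samples fewer cells of a type and less RNA per cell cannot be told apart.

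**Figure D2:**
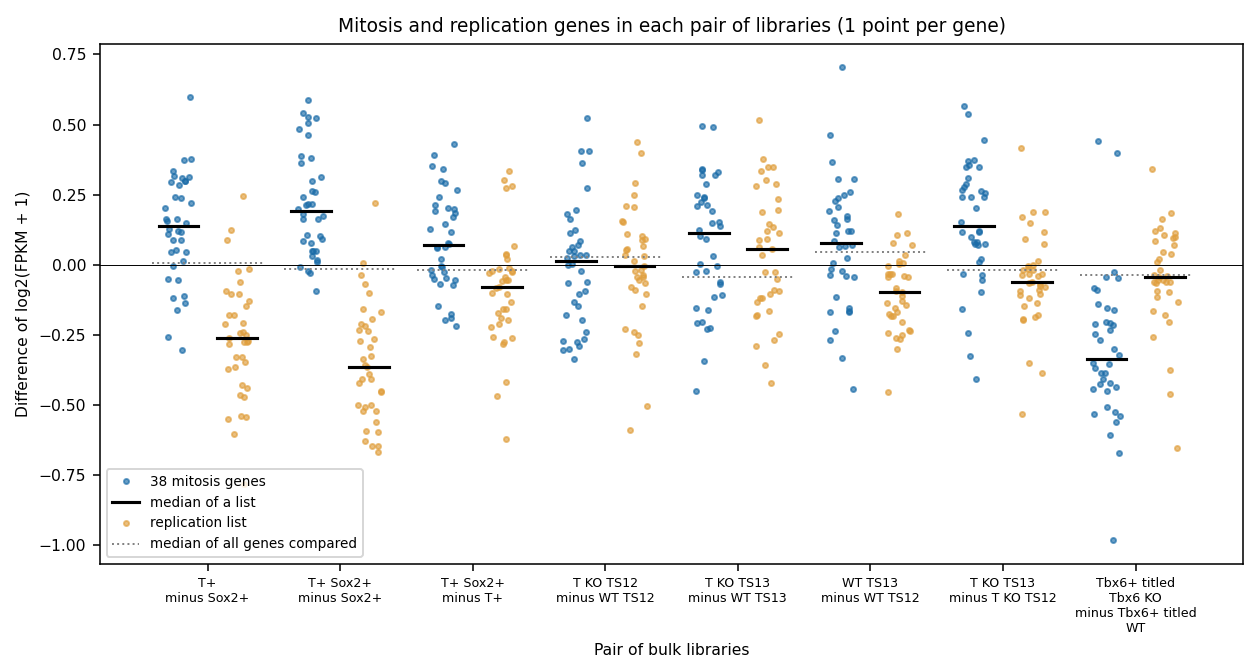
Difference of log2(FPKM + 1) for each gene in 8 pairs of bulk libraries, mitosis genes beside the replication list, with the median of each list (bar) and of all genes compared (dotted line). The mitosis median is 0.19 and the replication median -0.36 in T+ Sox2+ minus Sox2+, while in the Tbx6+ pair the mitosis median is -0.34.

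No mitosis gene passed the test for loss of T in T+ cells. In limma's fit of genotype and stage to 4 T+ libraries, 0 of 38 genes passed an adjusted p of 0.05 for T KO, where 122 of 8175 genes did (1.49%). Cenpf and Mki67 were the 2 of 38 with an unadjusted p under 0.05, where 12.6% of all genes had one, so the members are not above the background here. The fit has 1 residual degree of freedom per gene, the mismatch of the genotype effect between TS12 and TS13. limma moderates this with a variance shared over genes, and neither part holds replicate embryos of 1 genotype and stage. WT and T KO also differ in strain (C57BL/6N and C57BL/6J), so genotype and strain cannot be told apart.

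Cenpf, a protein of the kinetochore in mitosis, was at 28.3 FPKM in WT and 37.8 in T KO at TS12 and at 29.7 and 42.2 at TS13. Its estimate was 0.45 (SE 0.146, adjusted p = 0.20, limma). Both T KO libraries were above both WT libraries. Mki67, the coat protein of mitotic chromosomes, was at 57.8 in WT and 76.8 in T KO at TS12 and at 71.7 and 90.9 at TS13, an estimate of 0.37 (adjusted p = 0.33, limma). Here too both T KO libraries lay above both WT libraries. Cdk1 was at 57.7 in WT and 46.6 in T KO at TS12 and at 58.7 and 50.0 at TS13, the lowest estimate of the 38 at -0.26 (adjusted p = 0.49, limma). The WT and T KO values did not overlap for Cdk1 either, in the other direction. Other members, such as Ccna2 and Ect2, also separated in this way, and the share of all genes that did was not counted.

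At each stage alone the 38 were split in direction. At TS12, 21 of 38 were higher in T KO (54.3% of all genes), with a median of 0.01 against 0.03. With median centring these were 15 of 38 and -0.02, so the direction at TS12 turns with the scaling. At TS13, 23 of 38 were higher (44.3% of all genes), with a median of 0.11 against -0.04, and this stage does not use the WT TS12 library that stands apart. In neither stage did 1 of the 38 differ 2-fold, where 1.96% and 2.58% of all genes did. The largest difference at TS12 was Ube2c, at 61.7 FPKM in WT and 89.2 in T KO (0.52), but at TS13 it was 101 and 96.9 (-0.06). At TS13 Incenp, the scaffold of the chromosomal passenger complex, was at 22.7 in WT and 32.5 in T KO (0.50), and Cenpa, the centromeric histone, at 90.9 and 66.3 (-0.45). In all, 13 genes were higher in T KO at both stages, 7 lower at both and 18 had opposite signs. The same split over all genes was not counted, so these numbers have no background beside them. The replication list had medians of -0.01 and 0.06 at the 2 stages, while all 11 presomitic mesoderm genes tested had estimates below 0 and 9 of them passed the test (adjusted p of 0.05), with Msgn1 at -4.01 (SE 0.185, adjusted p = 1.5e-06, limma). Of the other mitosis genes, 1 of 85 tested was called: Cdc25b, a phosphatase that activates Cdk1, rose by 1.41 (SE 0.220, adjusted p = 0.010, limma).

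**Figure D3:**
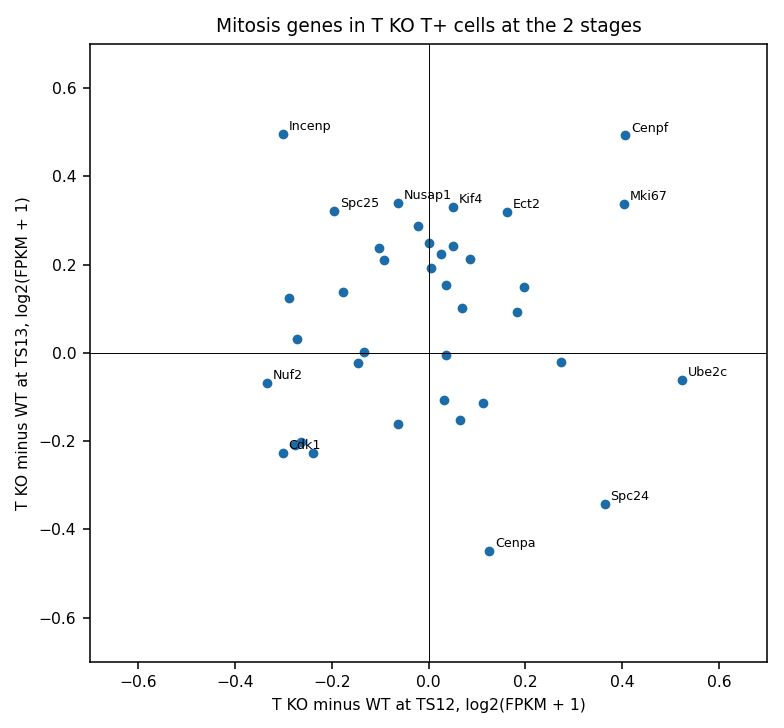
Difference of T KO and WT in log2(FPKM + 1) at TS12 (x axis) and at TS13 (y axis), 1 point per mitosis gene, with names where either is at least 0.3 in size. Cenpf and Mki67 lie in the upper right, Incenp and Spc24 in opposite corners.

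From TS12 to TS13 the 38 genes were higher in 24 of 38 in WT (58.0% of all genes), with a median of 0.08 against 0.05, and in 30 of 38 in T KO (47.4% of all genes), with a median of 0.14 against -0.02. In limma's stage term 0 of 38 passed an adjusted p of 0.05, where 0.257% of all genes did, and 4 of 38 had an unadjusted p under 0.05, close to the 9.06% of all genes that did. These were Ube2c, Kif4, Nusap1 and Ccnb2, with estimates of 0.41, 0.40, 0.36 and -0.34 and a lowest adjusted p of 0.45 (limma, Kif4). For Ube2c the stage difference was 0.70 in WT, which uses the WT TS12 library that stands apart, and 0.12 in T KO, which does not. Kif4, a chromosome-bound kinesin, went from 19.2 FPKM at TS12 to 23.2 at TS13 in the WT libraries and from 19.9 to 29.4 in the T KO libraries. Both TS13 libraries were above both TS12 libraries. Ccnb2, a second mitotic cyclin, was at 51.5 and 42.6 in WT and at 52.7 and 39.5 in T KO, so both TS13 libraries were below both TS12 libraries. How many of all genes separate by stage in this way was not counted. None of the 38 differed 2-fold, where 1.34% of all genes in WT and 1.48% in T KO did. All 9 blood and endothelium genes tested had stage estimates above 0, and 4 of them passed the test (adjusted p of 0.05). The list of 12 summed to 831 FPKM at TS12 and 2386 at TS13 in WT, and to 425 and 1840 in T KO. Their part was not tested. Over the 4 T+ libraries the highest FPKM + 1 of a member was 1.27 times the lowest in the median, against 1.32 for all genes.

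In the Tbx6+ pair the mitosis genes were lower in the library labelled Tbx6 KO. Only 2 of 38 were higher there (44.8% of all genes), and the median difference was -0.34 against -0.04 for all genes. No member differed 2-fold (4.06% of all genes), and 3 of 38 differed at least 1.5-fold, all lower, where 11.3% of all genes differed that much in either direction. This is 1 library against 1 library, so it describes the libraries, not the genotypes, and the labels contradict each other on which genotype each holds.

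Kif22, a kinesin that moves chromosomes along the spindle, was at 91.2 FPKM in the library labelled WT and at 45.7 in the other, a difference of -0.98. Ube2c was at 33.9 and 20.96 (-0.67) and Aurka, the kinase of the spindle poles, at 60.9 and 39.6 (-0.61). Kif20a, a kinesin of cytokinesis, was at 64.5 and 43.4 (-0.56), and Incenp at 37.4 and 25.5 (-0.54). These 5 are the lowest members. The 2 higher ones were Ccnb2, at 27.5 in the library labelled WT and 37.7 in the other (0.44), and Spc24, at 35.7 and 47.3 (0.40). Smallest in size were Mad2l1 (86.2 and 84.6, a checkpoint protein that binds Cdc20), Nusap1 (26.1 and 25.4) and Nuf2 (63.1 and 61.0).

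By role, 7 of 7 kinesins, 5 of 5 checkpoint genes, 4 of 4 spindle genes and 3 of 3 passenger complex genes were lower in the library labelled Tbx6 KO. The median was -0.44 for the kinesins, -0.21 for the checkpoint genes and -0.16 for the 7 kinetochore and centromere genes. The other mitosis list was lower in 64 of 82 genes compared, with a median of -0.22. The replication list had a median of -0.04, with 15 of 36 higher. Presomitic mesoderm genes had a median of -1.53 and axial progenitor genes 1.28. The blood and endothelium genes summed to 24.7 FPKM in the library labelled WT and 263 in the other, with 2 and 0 of 12 at 0. Their part in the mitosis genes was not tested.

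Grouped by promoter motifs, the 21 genes with both CCAAT and TTTGAA had a median of -0.37 in this pair, from -0.98 (Kif22) to 0.44 (Ccnb2). The 3 genes with CCAAT only had a median of -0.41 (-0.42 to -0.09) and the 4 with TTTGAA only -0.27 (-0.39 to -0.16). The 4 genes with neither had -0.14 (Birc5), -0.05 (Nuf2), -0.04 (Nusap1) and -0.03 (Mad2l1). Bub1 (CCAAT only, -0.09) and Cenpa (both motifs, -0.08) lay within the range of these 4, so the groups overlap. The grouping was read after the values were seen. The order of the genes with both motifs and with neither was not the same in every pair. In T KO minus WT at TS12 the medians were 0.0040 with both motifs and -0.26 with neither, and in T+ minus Sox2+ 0.17 and -0.11. Of the other pairs, only T+ Sox2+ minus T+ had the order of the Tbx6+ pair, with 0.06 and 0.20. Among genes outside the 38 in the Tbx6+ pair, those with both motifs had a median of -0.08 (418 genes) and those with neither -0.05 (2897 genes).

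**Figure D4:**
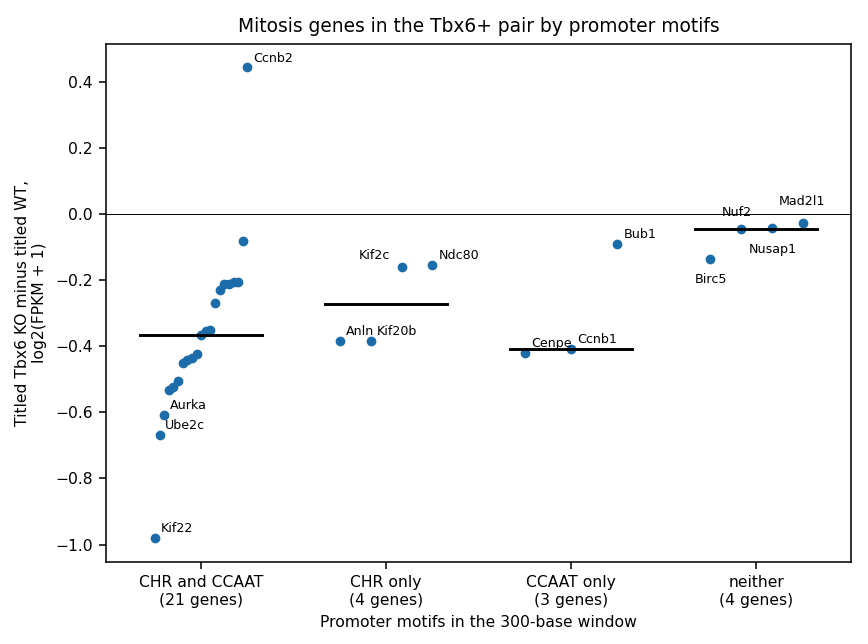
Difference of the Tbx6+ libraries (labelled Tbx6 KO minus labelled WT) in log2(FPKM + 1) for the 32 mitosis genes with a promoter sequence, by motifs in the window, with bars at the medians. The 21 genes with both motifs have a median of -0.37, the 3 with CCAAT only -0.41 and the 4 with TTTGAA only -0.27. The 4 with neither lie between -0.14 and -0.03, a range that also holds Bub1 (CCAAT only) and Cenpa (both motifs).

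In single T+ Sox2+ cells the mitosis genes were broadly present. A cell had 28 to 38 of the 38 genes at 1 FPKM or more (median 35), and 10 of 53 cells had all of them. The 12 genes Cdk1, Ccna2, Ccnb1, Bub3, Cdc20, Ube2c, Cenpe, Cenpf, Nusap1, Prc1, Top2a and Mki67, were at 1 FPKM or more in 53 of 53 cells. The fewest cells were for Kif20a (28 cells), Kif4 (31) and Anln (32). Ube2c had a median of 443 FPKM over cells (lowest 27.6, highest 1096), Top2a 158 (50.7 to 314) and Kif20a 1.33 (0 to 76.8). An exact 0 can be a failed estimate, and the depth of each cell is unknown. The chip gave 1 sort of cells, which are not replicates.

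Between the 38 genes there was little co-variation over the 53 cells. The median Spearman rho of the 703 pairs was 0.03. It was 0.02 for pairs of 5491 genes detected in at least 28 cells, the number for the member found in fewest. At rho 0.3 or more were 2.42% of member pairs and 2.91% of the pairs of these 5491 genes. Of the members, 35 of 38 were in at least 40 cells, so the 2 sets are not matched for detection. The highest was Aurka with Kif4 at 0.45, then Ccnb2 with Kif2c at 0.40 and Cdk1 with Kif22 at 0.38, and the lowest Spc24 with Cenpe at -0.37. In sparse values these are weak. Against the mean of the other members, Kif20a (0.45), Kif4 (0.37), Tpx2 (0.31), Kif2c (0.28) and Ccna2 (0.26) were highest. Spc24 (-0.14), Nusap1 (-0.08), Cenpe (-0.06), Top2a (-0.04) and Ube2c (-0.03) were lowest. The highest members had rho 0.24 (Kif2c) to 0.43 (Kif20a) with the number of genes detected per cell. The lowest had -0.16 (Top2a) to -0.03 (Cenpe). The part of detection in this order was not tested. Tpx2 brings Aurora A to the spindle.

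The mean of the 38 genes followed the number of genes detected, with rho 0.77 over cells that had 3907 to 8537 genes. Its rho was 0.26 with Sox2 and 0.01 with T, the genes on which the cells were sorted. Sox2 and T had rho 0.07 and -0.14 with the genes detected. Member by member, rho with Sox2 ran from -0.24 (Nusap1) to 0.42 (Kif4) with a median of 0.05, and rho with T from -0.29 (Ccna2) to 0.45 (Hmmr) with a median of 0.01. With the log2 of the summed FPKM of the 38 in place of their mean, rho was 0.05 with Sox2 and 0.21 with T. With ranks adjusted for genes detected, the mean had rho 0.33 with Sox2 and 0.18 with T. The summed FPKM had rho 0.18 with the genes detected. Against the mean of the replication list rho was 0.59, but 0.04 with summed FPKM and -0.11 with ranks adjusted for genes detected. The replication mean had rho 0.82 with the genes detected. The genes outside the 38 most like the member mean were Cdr2 (0.63), Cenpq, Zfp280c, Foxo1, Trnt1, Troap, Nol8, Prps2, Vmp1 and Mfap1a (0.57), whose own rho with the genes detected ran from 0.34 to 0.65.

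**Figure D5:**
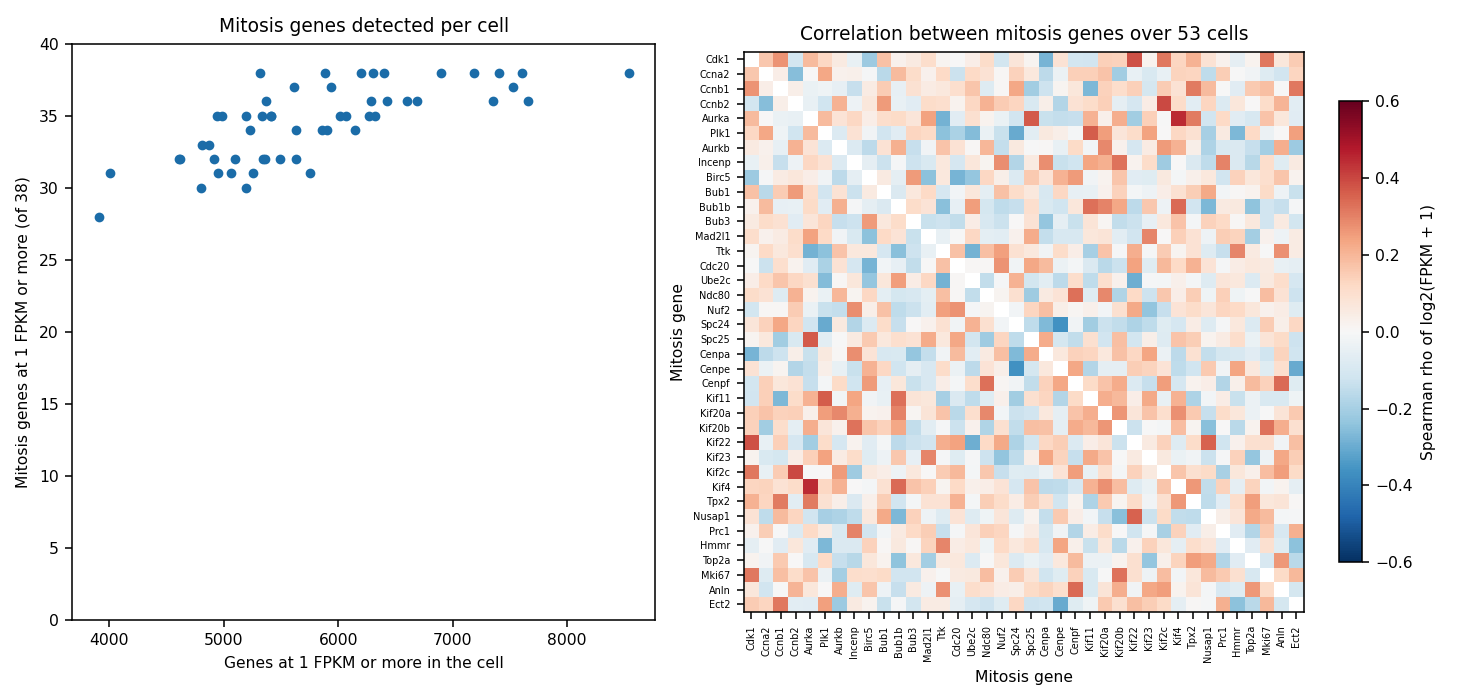
Left, mitosis genes at 1 FPKM or more per cell against all genes at 1 FPKM or more (1 point per cell, 53 cells). Right, Spearman rho between each pair of the 38 genes over the 53 cells, with a median of 0.03.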

How the data were processed

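The deposited values are FPKM, 1 per gene symbol and library, as the authors made them. The submitters' processing notes list SAMtools, Picard 1.103, bedtools 2.23.0, Cufflinks 2.2.1 (Cuffdiff for bulk, Cuffnorm for cells), Bowtie 1.1.2 and TopHat2 2.1.0, and mm10 as the build. What each tool did, the annotation and the scaling: not given in the sources used here. These mitosis genes and the lists were chosen with earlier results of these data known. Small RNAs, numbered gene models, Rik clone symbols, mitochondrial genes and pseudogenes were left out of background counts, which kept 19628 symbols. Rik symbols were dropped after results had been seen. T, Sox2 and Tbx6 were left out too. Differences are of log2(FPKM + 1), for genes with at least 5 FPKM in 1 library compared. limma 3.58.1 in R 4.3.3 (trend, Benjamini-Hochberg over all genes, 0.05) was checked on simulated data. Named in each comparison are the 5 highest and lowest members or some of them, with every called member, and of other lists some of the called genes. Depth was estimated from FPKM steps of low genes (relative tolerance 0.0003). In cells, Spearman rho is over 53 cells. Python 3.11.15 was used.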

Additional observations from a re-analysis of the deposited data

Results flagged for a closer look

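In 2 genes the T KO minus WT difference had opposite signs at the 2 stages and was at least 0.25 in size at both, a size set after the values were seen. Incenp was -0.30 at TS12 and 0.50 at TS13, so the later difference was 0.80 higher. Spc24 was 0.36 at TS12 and -0.34 at TS13, so the later minus the earlier difference was -0.71. Each value rests on 1 library per genotype and stage, and the difference between stages was not tested.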

How the results depend on the processing

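Limits: each bulk group is 1 library, so spread between embryos is unknown, and the depth of each cell is unknown. The limma fit called 0 of 38 genes for T KO and for stage under each alternative run: pseudocounts of 0.1 and 5, no minimum, 20 FPKM, upper-quartile and median scaling, the effect term alone, a minimum fold of 1.2, and Rik symbols kept. With Rik symbols kept (an alternative chosen after seeing the data), 90 of 8430 genes were called for T KO and 17 for stage, against 122 and 21 of 8175. Over all genes, T KO calls ran from 20 (minimum of 20 FPKM) to 579 (no minimum). Without 1 library in turn the fit has no residual degree of freedom, and its medians are those of the single pairs of libraries given above. The T KO median was then 0.01 or 0.11 and the stage median 0.08 or 0.14, so this is no separate check.

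Of the bulk alternatives, 215 stayed within their tolerance (0.1 for a median, 1.5 times for a count) and 5 moved. Of those in cells (0.1 for a correlation), 20 stayed, 7 moved and 1 was reversed. Many of the 215 could not move. All members are above 5 FPKM, so having no minimum or keeping Rik symbols leaves their differences as they were. The effect term alone and the minimum fold leave the limma medians as they were. The tolerance of 0.1 is also larger than some of the medians, such as 0.01 for T KO minus WT at TS12. Within tolerance, the T KO minus WT median at TS12 still changed sign with median centring, from 0.01 to -0.02, with 15 of 38 members higher in place of 21. With upper-quartile scaling the T KO median at TS13 was 0.22 in place of 0.11, with 28 of 38 higher in place of 23. At 1.5-fold in place of 2-fold, 1 member differed in T+ minus Sox2+, 1 in T+ Sox2+ minus Sox2+, 1 in WT TS13 minus TS12 and 3 in the Tbx6+ pair, against 0. In cells, the member mean's rho with Sox2 was 0.048 with summed FPKM. Under the other alternatives the member mean kept a rho with Sox2 of 0.23 (cells with both T and Sox2 detected) to 0.33 (ranks adjusted for genes detected). Its rho with T was 0.21 with summed FPKM, 0.11 with each cell divided by its summed FPKM and 0.18 with ranks adjusted for genes detected (chosen after seeing the data). Its rho with the replication list was 0.035 with summed FPKM, 0.71 with each cell divided by its summed FPKM, 0.47 with a pseudocount of 10 and -0.11 with ranks adjusted for genes detected. The cause was not tested. The main fit keeps stage as a term beside genotype. With the genotype term alone 21 genes were called for T KO in place of 122, and with the stage term alone 1 in place of 21.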
